A study of Mus musculus with 14 samples.

Results

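The genes described here are the ligands, receptors, Smads, inhibitors and target genes of TGF-beta and BMP signalling. They were chosen by gene symbol from a list of 43, out of 20139 genes listed in the spleen or the ovary table. Of the 43, 42 were listed in the spleen table and 42 in the ovary table. Bmpr1b was missing from the first and Grem1 from the second, so 41 genes could be compared in both organs. The study measured poly(A) RNA in mice that lack ZFP36L2, a zinc finger protein that binds AU-rich elements in 3′ untranslated regions and promotes decay of the mRNA.

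Each library held the RNA of 1 organ from 1 mouse. The groups compared were 4 wild-type spleens, 4 L2-fKO spleens, 3 wild-type ovaries and 3 L2-fKO ovaries. L2-fKO animals (called L2-cKO in the sample labels) have the genotype Zfp36l2-/-;CMV-Cre, with both floxed copies of exon 2 recombined. The wild-type littermates had intact Zfp36l2 and also carried Tg.CMV-Cre, so the Cre transgene was shared by all groups. The CMV promoter drives Cre in all tissues and in the germ line, so the deletion was not limited to 1 cell type. The spleens came from both sexes, with 2 females among the 4 wild types and 3 males among the 4 L2-fKO animals, whereas all ovaries were female. L2-fKO spleen 3 and L2-fKO ovary 1 came from the same animal. The labels give no ages. The study describes the animals as age-matched and its L2-fKO tissues as taken from neonatal pups, which do not live long after birth. The labels name the spleen source as Spleen Organoid, and markers of B cells, T cells, erythroid cells, macrophages and endothelium were all listed in that table. The oocyte markers were listed in the ovary table and none was listed in the spleen table. Summed counts were 39138010 to 45167464 per spleen and 31052510 to 44270070 per ovary. Zfp36l2 itself fell in the L2-fKO spleens to 5.93% of the wild-type mean (4362 to 7327 normalised counts in wild type, 276 to 398 in L2-fKO) and in the L2-fKO ovaries to 19.1%.

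TGF-beta and BMP proteins are dimeric ligands that are cleaved from larger precursors. TGF-beta leaves the cell in a latent complex, bound by its own propeptide to a latent TGF-beta binding protein, and has to be released before it can signal. Active ligands bring together type II and type I serine/threonine kinase receptors. The type I receptor phosphorylates a receptor Smad, which enters the nucleus with Smad4. TGF-beta and activin receptors act mainly through Smad2 and Smad3, and BMP receptors through Smad1, Smad5 and Smad9. Smad6, Smad7, the Smurf ubiquitin ligases, Ski and Skil restrain the signal, and the Id genes are classical BMP targets. In the ovary, members of this family pass between the oocyte and its granulosa cells. In the spleen and blood, latent TGF-beta is made by leukocytes and carried by platelets.

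Because the deleted protein binds AU-rich elements, the longest annotated 3′ untranslated region of each member was searched for UAUUUAU on the mRNA strand. The motif was found in 22 of 43 members (51.2%). It was found in 29.7% of 14186 genes tested in the spleen, whose median 3′ untranslated region was 1160 bases against 2599 bases in the members, so the members had more sequence to search. Bmp2, a ligand, and Bmpr2, the type II BMP receptor, held 4 matches each, the most of any member tested in the spleen, and are shown for that reason. The match is in capitals and the flanks are 10 bases on each side, written 5′ to 3′ as RNA of the plus strand in GRCm38. The Bmp2 sites lie at chr2:133561821-133561847, chr2:133561866-133561892, chr2:133562007-133562033 and chr2:133562058-133562084. The Bmpr2 sites lie at chr1:59871467-59871493, chr1:59874126-59874152, chr1:59875216-59875242 and chr1:59876908-59876934. All 8 sites are in the 3′ untranslated region, and they follow in that order.
Bmp2 a: augaagacuuUAUUUAUggaauggaau
Bmp2 b: uuugaaaauaUAUUUAUaucuacgaaa
Bmp2 c: aguuauuuugUAUUUAUuuacuauuau
Bmp2 d: aguuaauuugUAUUUAUauguaaucag
Bmpr2 a: uuacauuuucUAUUUAUaauaacuuca
Bmpr2 b: uaaaaaauuuUAUUUAUuuaauguaug
Bmpr2 c: uuaauuacuuUAUUUAUauuuaaagca
Bmpr2 d: ugguaacauaUAUUUAUuuaagcaaug

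The wild-type organs differed in which ligands they expressed. Levels are given as RPKM, that is reads scaled to exon length and to the reads of each library in the 15300 genes listed for both organs. They are described without a test because the spleen and ovary tables were made separately. Tgfb1, the main TGF-beta of blood cells, was by far the highest ligand of the spleen at 51.0 ± 7.84 (SD, n = 4), against 4.48 ± 0.166 (SD, n = 3) in the ovary, an 11.4-fold difference. Tgfb3 had the opposite order, with 2.16 ± 0.122 in the spleen and 37.5 ± 3.5 in the ovary, and it was the highest ligand of the ovary. Tgfb2 was at 0.619 ± 0.199 in the spleen and 10.8 ± 1.30 in the ovary. Among the BMP ligands, Bmp2 was higher in every spleen (4.85 ± 0.820) than in any ovary (2.83 ± 0.499). Bmp4, Bmp6 and Bmp7 were higher in every ovary, with 5.77 ± 0.160, 10.9 ± 0.0784 and 6.60 ± 0.422 there and 1.84 ± 0.421, 2.5 ± 0.343 and 0.110 ± 0.0495 in the spleen. Gdf10 overlapped between the organs. In the spleen the order below Tgfb1 was Gdf10 (7.35 ± 1.73), Bmp2, Bmp6, Tgfb3, Bmp4, Tgfb2 and Bmp7. Bmp6 and Tgfb3, and Tgfb3 and Bmp4, differed by no more than the larger SD of the pair. In the ovary Bmp6 and Tgfb2 differed by less than their spread, and Gdf10 followed at 8.66 ± 1.29.

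Most of the signalling chain was higher in the ovary on this scale. Of the 41 members listed in both tables, 35 were higher in every wild-type ovary than in any wild-type spleen (85.4%, against 53.6% of the 15300 genes in both tables). Only Tgfb1, Bmp2 and Eng were higher in every spleen (7.32%, against 24.3%), and Gdf10, Tgfbr2 and Acvrl1 overlapped. The median ovary to spleen ratio was 1.43 over all 15300 genes and 3.37 over the members. When every ovary value was divided by 1.43, 30 members were higher in every ovary and 4 in every spleen, against 38.2% and 38.4% of all genes. Acvrl1 was then higher in every spleen. The target genes were the most affected by that scaling: all 5 were higher in every ovary before it and only Tgfbi after it.

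Bmpr1b, a type I BMP receptor, was the member that separated the organs most. It was at 13.2 ± 2.12 in the wild-type ovary and at 0.0353 ± 0.0172 in the spleen, where it had 63 reads over all 8 libraries and at most 15 in any. Bmpr1a was at 35.7 ± 2.16 in the ovary, the highest receptor there, and at 3.27 ± 0.458 in the spleen. Acvr2b, a type II activin receptor, stood at 3.24 ± 0.430 and 0.285 ± 0.0639. Eng (endoglin), the co-receptor of vessel endothelium, was the highest receptor of the spleen at 30.5 ± 2.19, with 23.1 ± 0.846 in the ovary. Its partner Acvrl1 (ALK1), an endothelial type I receptor, was at 6.60 ± 0.636 and 5.62 ± 0.256. The type II TGF-beta receptor Tgfbr2 was at 11.3 ± 3.32 in the spleen and 14.2 ± 0.422 in the ovary, and wild-type spleen 1 was the high library of its group.

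The Smads and the regulators inside the cell were all higher in every ovary than in any spleen before the median scaling. Smad3 was at 46.0 ± 2.98 and Smad4, the shared partner, at 39.6 ± 0.723, against 6.36 ± 1.00 and 9.21 ± 1.89 in the spleen. Smad9 was the lowest Smad of both organs, at 0.437 ± 0.120 and 0.120 ± 0.0710. Ski, a repressor of Smad-driven transcription, was at 54.4 ± 2.62 in the ovary and 11.2 ± 0.874 in the spleen. Outside the cell, the BMP antagonist Nbl1 was at 38.8 ± 2.19 and 3.41 ± 0.358, and the antagonist Chrdl1 at 2.19 ± 0.135 and 0.0653 ± 0.0353.

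**Figure D1:**
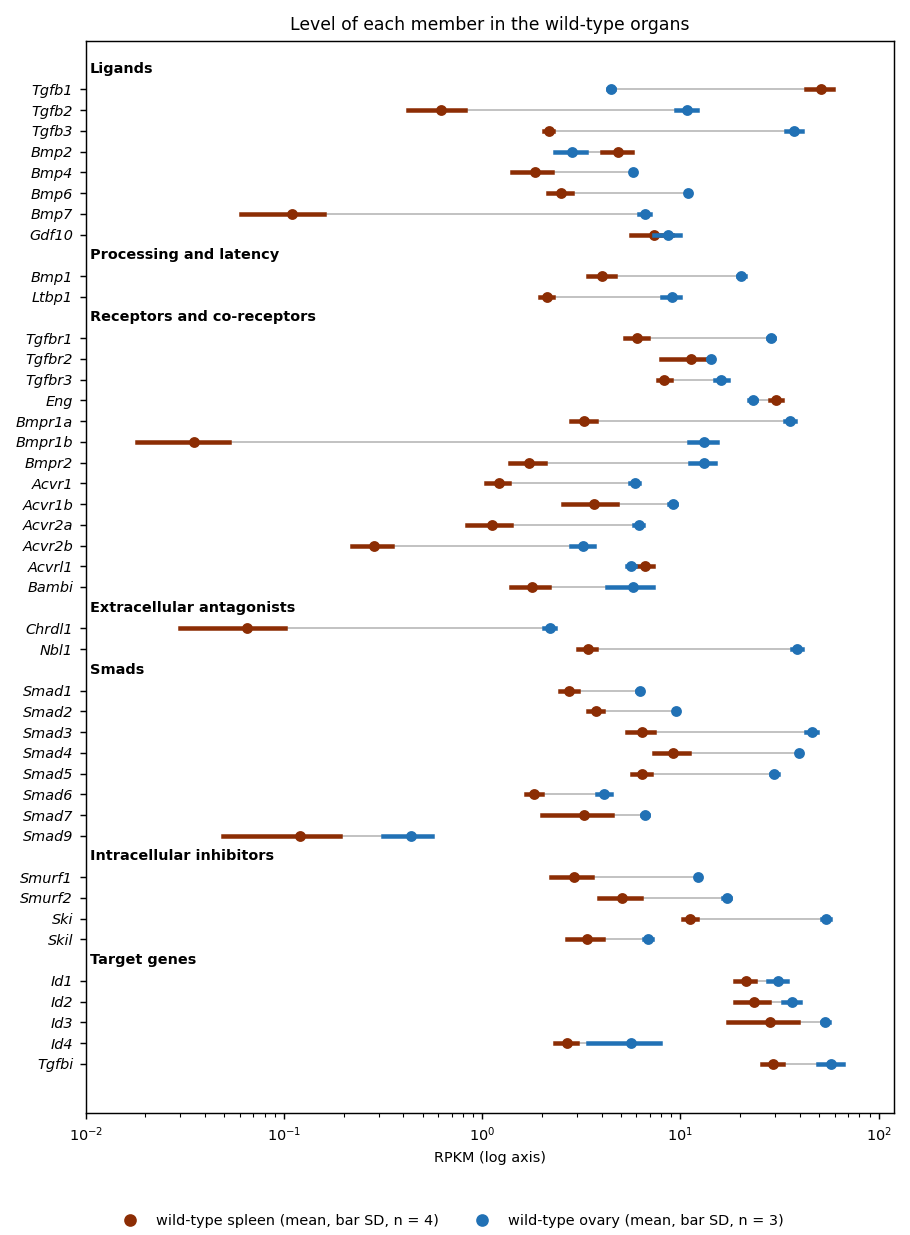
Level of each member listed in the ovary table, in wild-type spleen (brown, n = 4) and wild-type ovary (blue, n = 3), as RPKM on a log axis. Points are means and thick bars SDs, and Tgfb1 (51.0 against 4.48) is the member furthest to the spleen side while Bmpr1b (0.0353 against 13.2) is furthest to the ovary side.

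Between the genotypes, 4 of the 42 members tested in the spleen passed an adjusted p of 0.05 by edgeR's quasi-likelihood test (9.52%, against 13.4% of the 16911 genes tested). Bmp1, Bmpr1a and Acvrl1 rose in the L2-fKO spleens (7.14% of members, against 6.89% of all genes). Ltbp1 fell (2.38%, against 6.51%), and it alone also passed an absolute log2 fold change of 1 (2.38%, against 6.01%). At an unadjusted p under 0.05, 13 members passed (31.0%, against 29.0% of all genes). These shares lie near or below the background. Fewer cells of a type and less RNA per cell cannot be told apart in these whole organs.

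The L2-fKO spleens were not alike. L2-fKO spleen 4 had the highest value of its group for 34 of 42 members, against 41.6% of all genes, and L2-fKO spleen 3 had the lowest for 29, against 34.9%. L2-fKO spleen 4 also had the highest summed macrophage, stroma and endothelial markers of the 8 spleens (79246, 81874 and 38584 normalised counts). Its summed erythroid markers were the lowest of the 8 (400042), and those of L2-fKO spleen 3 were the highest (834996). The part of these cells in the member values was not tested. The median log2 fold change of the members was 0.13, with 30 above 0 and 12 below, against −0.02 over all genes. Without L2-fKO spleen 4 the median was 0.03, with 23 above 0 and 19 below.

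**Figure D2:**
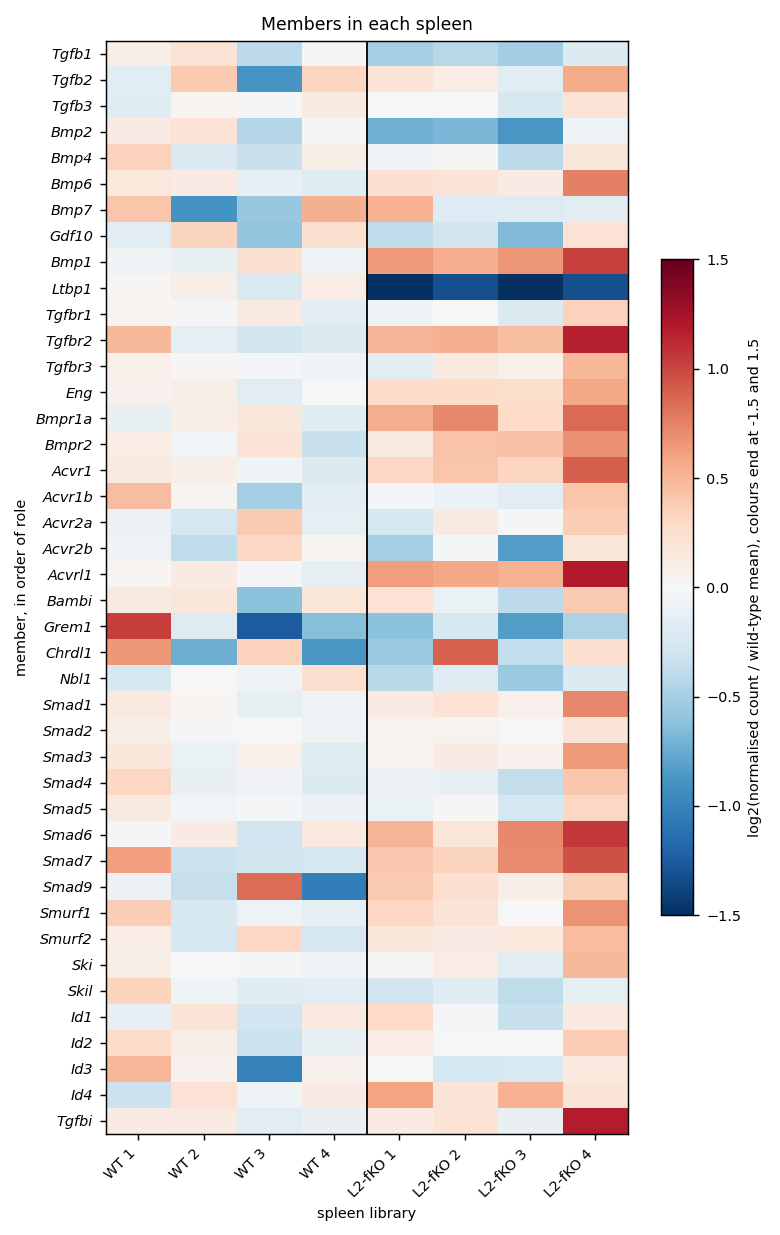
Each of the 42 members tested (rows, in order of role) in each spleen library (columns), as log2 of the normalised count over the wild-type mean, red above and blue below. Ltbp1 is the dark blue row of the L2-fKO spleens, and L2-fKO spleen 4 is the highest of its group in 34 of 42 rows.

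Ltbp1 encodes latent TGF-beta binding protein 1, which holds latent TGF-beta and ties it to the matrix (ENSMUSG00000001870, GRCm38 chr17:75005568-75392512, plus strand). Its normalised counts were 979, 1024, 822 and 1040 in the wild-type spleens and 171, 388, 180 and 387 in the L2-fKO spleens. The groups did not overlap, and L2-fKO spleens 1 and 3 were the low pair. Ltbp1 fell by 1.77 on the log2 scale (SE 0.29, adjusted p = 0.0039, edgeR), to 29.2% of the wild-type mean. In the ovaries it was at 3708, 3069 and 3670 in wild type and 3742, 3386 and 2894 in L2-fKO, with a log2 fold change of −0.06 (SE 0.12, adjusted p = 0.823, limma). The difference between the organs was itself past the test at −1.82 (SE 0.36, adjusted p = 0.00854, limma interaction). Leaving out any 1 library kept both calls, with the spleen value between −1.97 and −1.60.

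Platelets and the megakaryocytes that shed them carry latent TGF-beta and its binding protein. In the spleen all 10 megakaryocyte and platelet markers fell, and their sum went from 30891 to 61284 normalised counts in wild type to 1625 to 2140 in the knockout, or 4.08% of wild type. Of the 10 markers 6 were listed for the ovary, so its sums are not comparable with those of the spleen. They overlapped, at 3086 to 4050 and 2205 to 3974, and were mostly Itgb3 (1730 to 3669). The part of these cells in the Ltbp1 difference was not tested. Thbs1, the platelet and matrix protein thrombospondin 1 that can activate latent TGF-beta, was at 10224, 12033, 9693 and 10550 in the wild-type spleens and 1028, 1484, 979 and 952 in the L2-fKO spleens. It fell to 10.5% of the wild-type mean (log2 fold change −3.26, adjusted p = 8.84e-06, edgeR).

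Tgfb1, the ligand that Ltbp1 holds (ENSMUSG00000002603, chr7:25687002-25705077, plus strand), was at 11695, 12656, 8360 and 11036 in the wild-type spleens. The L2-fKO spleens were at 7771, 8175, 7589 and 9450. Wild-type spleen 3 lay among the L2-fKO values, so the groups overlapped. The log2 fold change was −0.41 (SE 0.14) and missed the threshold, with an adjusted p of 0.0922 (edgeR). In the ovaries the order was the other way round, with 797, 837 and 807 in wild type and 1026, 905 and 1068 in L2-fKO (log2 fold change 0.29, SE 0.09, adjusted p = 0.175, limma). The ovary groups did not overlap. The difference between the organs was −0.69 (SE 0.18, adjusted p = 0.0358, limma interaction). It kept its call in 3 of the 14 fits that left out 1 library, with values between −0.81 and −0.61 and adjusted p up to 0.0959. The spleen difference itself passed without wild-type spleen 3 (adjusted p = 0.0232) or without L2-fKO spleen 4 (0.0423).

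**Figure D3:**
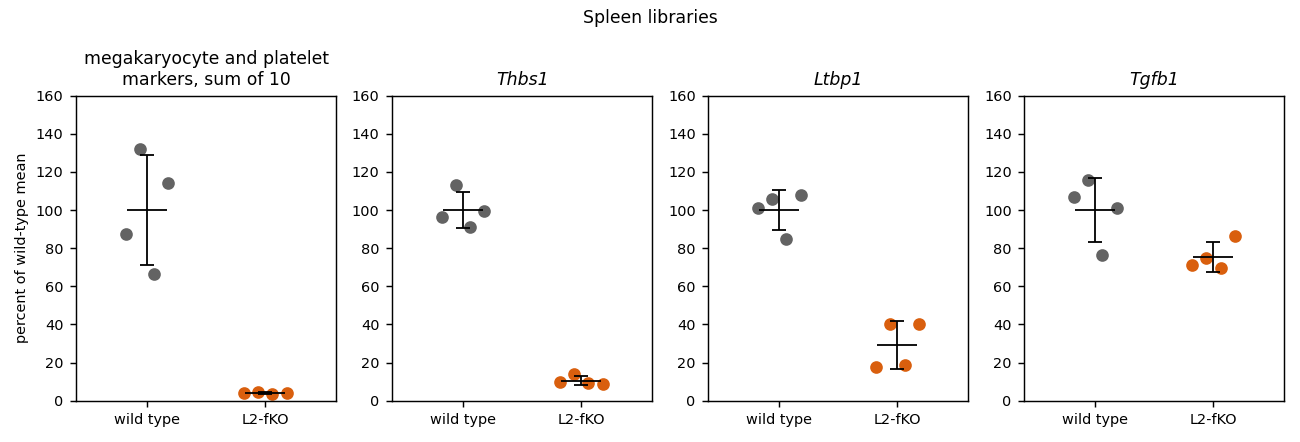
Spleen libraries as percent of the wild-type mean, for the summed megakaryocyte and platelet markers, Thbs1, Ltbp1 and Tgfb1. Points are the 4 libraries of each genotype with the mean and SD, and the L2-fKO means stand at 4.08%, 10.5%, 29.2% and 75.4%.

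Bmp1, grouped with Ltbp1 under processing and latency, is a secreted metalloprotease that cleaves procollagen and BMP antagonists (ENSMUSG00000022098, chr14:70474558-70520234, minus strand). It was at 1458, 1402, 1774 and 1438 in the wild-type spleens and 2357, 2208, 2401 and 3086 in the L2-fKO spleens. No L2-fKO value was as low as the highest wild-type value. Bmp1 rose 1.66-fold (log2 fold change 0.72, SE 0.14, adjusted p = 0.00893, edgeR), and the call held without each library in turn, at 0.60 to 0.81. In the ovaries it was at 6465, 6354 and 6659 in wild type and 6686, 6858 and 7590 in L2-fKO. These groups also did not overlap, but the log2 fold change was 0.12 (SE 0.07, adjusted p = 0.457, limma). The difference between the organs was 0.61 (SE 0.16, adjusted p = 0.0422), and it kept its call in 4 of 14 fits without 1 library, with adjusted p up to 0.102.

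Receptors held the other calls. Acvrl1 (ENSMUSG00000000530, chr15:101128522-101145336, plus strand) was at 1216, 1303, 1172 and 1082 in the wild-type spleens and 1839, 1788, 1711 and 2727 in the L2-fKO spleens. The groups did not overlap, and L2-fKO spleen 4 was far above its group. Acvrl1 rose 1.69-fold (log2 fold change 0.76, SE 0.16, adjusted p = 0.0152, edgeR). It was 0.57 without L2-fKO spleen 4 (adjusted p = 0.00613), and of the 8 fits that left out 1 library the call was lost only without wild-type spleen 4 (0.71, adjusted p = 0.0586). In the ovaries Acvrl1 was at 928, 841 and 823 in wild type and 959, 1050 and 1083 in L2-fKO, again without overlap (log2 fold change 0.25, SE 0.09, adjusted p = 0.223, limma). The difference between the organs was 0.48 (SE 0.20, adjusted p = 0.178).

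Bmpr1a, the type I BMP receptor ALK3 (ENSMUSG00000021796, chr14:34410734-34503341, minus strand), was at 817, 939, 986 and 776 in the wild-type spleens. In the L2-fKO spleens it was at 1284, 1455, 1084 and 1582, all above the wild types. It rose 1.54-fold (log2 fold change 0.62, SE 0.15, adjusted p = 0.0227, edgeR). The call was less stable than the others: it was lost without wild-type spleen 1 (adjusted p = 0.0535), 2 (0.0571) or 4 (0.0844) and without L2-fKO spleen 1 (0.0574) or 2 (0.0745). The ovary values were 8756, 8313 and 7456 in wild type and 8999, 8433 and 6906 in L2-fKO, with overlap and a log2 fold change of −0.02 (SE 0.11, adjusted p = 0.953, limma). The difference between the organs was 0.63 (SE 0.19) and missed the threshold, with an adjusted p of 0.0696.

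**Figure D4:**
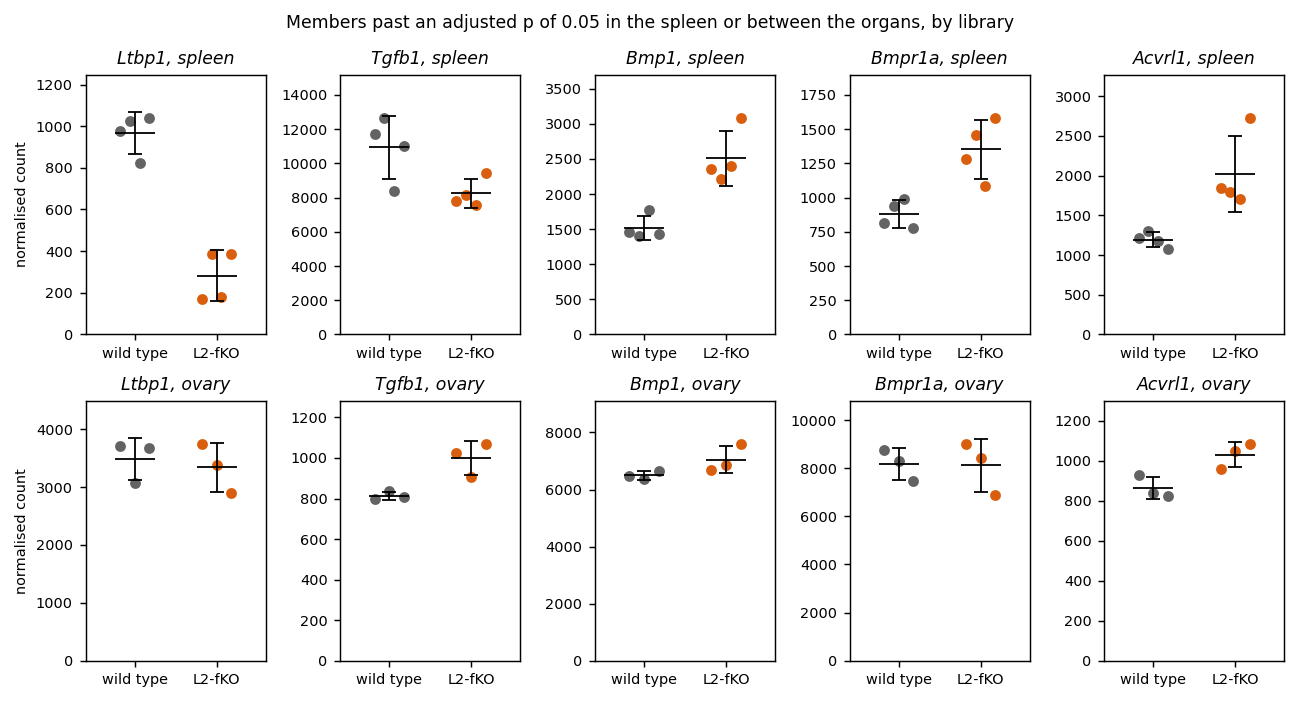
Normalised counts of the 5 members past an adjusted p of 0.05 in the spleen or in the difference between the organs, in spleen (top) and ovary (bottom). Points are libraries with the mean and SD, each axis starts at 0, and Ltbp1 in the spleen (822 to 1040 against 171 to 388) is the widest gap.

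The remaining receptors did not pass by edgeR. Of all 12 receptors tested in the spleen, Acvrl1 and Bmpr1a among them, 11 had a log2 fold change above 0, with a median of 0.26. DESeq2, which called 19.5% of all genes against 13.4% by edgeR, also called Tgfbr2, Eng and Acvr1. Tgfbr2 was also called by edgeR with no filter on low counts, with male libraries alone or without wild-type spleen 1. Tgfbr2 was at 5438, 3532, 3215 and 3390 in wild type and 5532, 5636, 5338 and 8667 in L2-fKO (log2 fold change 0.69, SE 0.22, adjusted p = 0.0618). Wild-type spleen 1 reached the L2-fKO values and L2-fKO spleen 4 lay far above them. Eng was at 5471, 5596, 4716 and 5211 against 6339, 6353, 6294 and 7863 (0.35, SE 0.11, adjusted p = 0.0705). Acvr1, the type I receptor ALK2, was at 272, 265, 237 and 214 against 306, 330, 308 and 461 (0.51, SE 0.18, adjusted p = 0.0923). Bmpr2, whose 4 UAUUUAU matches are given above, was at 1406, 1265, 1505 and 1037 against 1431, 1757, 1767 and 2104 (0.43, SE 0.16, adjusted p = 0.0969). Acvr2b was the receptor below 0, at −0.24 (SE 0.28). Tgfbr1, Tgfbr3, Acvr1b, Acvr2a and Bambi lay between 0.03 and 0.16.

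Some markers of vessels, stroma and macrophages differed in the same spleens, where 13.4% of all genes did. The summed endothelial markers were 19291 to 25092 in the wild-type spleens and 25414 to 38584 in the L2-fKO spleens, and 1 of the 7 (Cdh5) rose, while the other 6 did not pass. The summed stroma markers were 48777 to 58009 and 62864 to 81874, with 3 of 8 up (Pdgfra, Pdgfrb and Lum) and no collagen past the test, and the summed macrophage markers were 26964 to 45655 and 44387 to 79246, with 2 of 6 up. In the ovaries the endothelial sums were 13511 to 14249 and 16393 to 19550. The part of these cells in the receptor values was not tested. Pancreatic acinar markers varied among the wild-type spleens, from 1608 to 19405, against 1230 to 2187 in L2-fKO.

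None of the 8 Smads passed in the spleen by edgeR, whose log2 fold changes for them ran from −0.01 to 0.65 with a median of 0.25. The inhibitory Smads had the highest values. Smad6, which blocks BMP signals, was at 244, 273, 205 and 277 in wild type and 357, 283, 412 and 520 in L2-fKO (0.65, SE 0.20, adjusted p = 0.0595). Its groups did not overlap, but L2-fKO spleen 2 was only just above wild-type spleen 4. Smad7, which blocks both branches, was at 949, 496, 512 and 522 against 821, 780, 1009 and 1202 (0.62, SE 0.24, adjusted p = 0.116), and wild-type spleen 1 lay among the L2-fKO values. Smad6 passed by DESeq2 and by edgeR with no filter on low counts or without L2-fKO spleen 2. Smad7 passed by edgeR with male libraries alone or without wild-type spleen 1. The receptor Smads Smad1, Smad2, Smad3, Smad5 and Smad9 lay between 0.01 and 0.31, and Smad4 was at −0.01 (SE 0.18).

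The ligands other than Tgfb1 did not pass either with all 8 libraries. Bmp2, the other member tested here with 4 UAUUUAU matches, was at 802, 847, 545 and 740 in wild type and 444, 455, 401 and 700 in L2-fKO (−0.55, SE 0.21, adjusted p = 0.111). L2-fKO spleen 4 was the library that reached the wild-type values. Bmp6, an iron-regulating BMP, was at 0.35 (SE 0.18). Tgfb2, Tgfb3, Bmp4, Bmp7 and Gdf10 lay between −0.24 and 0.21, and Bmp7 had no library above 27.3 normalised counts. The antagonists Grem1, Nbl1 and Chrdl1 were at −0.53 (SE 0.43), −0.33 (SE 0.16) and 0.15 (SE 0.44). Smurf1, Smurf2, Ski and Skil were at 0.31, 0.23, 0.13 and −0.24, with adjusted p between 0.276 and 0.585.

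The target genes gave no call in the spleen. Id1, Id2, Id3 and Id4 were at 0.04, 0.13, −0.08 and 0.38, with standard errors of 0.15 to 0.26. Tgfbi, a matrix protein induced by TGF-beta, was at 0.44 (SE 0.26, adjusted p = 0.295). Its values were 5107, 5131, 4196 and 4324 in wild type and 5087, 5402, 4343 and 10587 in L2-fKO, so that L2-fKO spleen 4 alone stood apart.

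**Figure D5:**
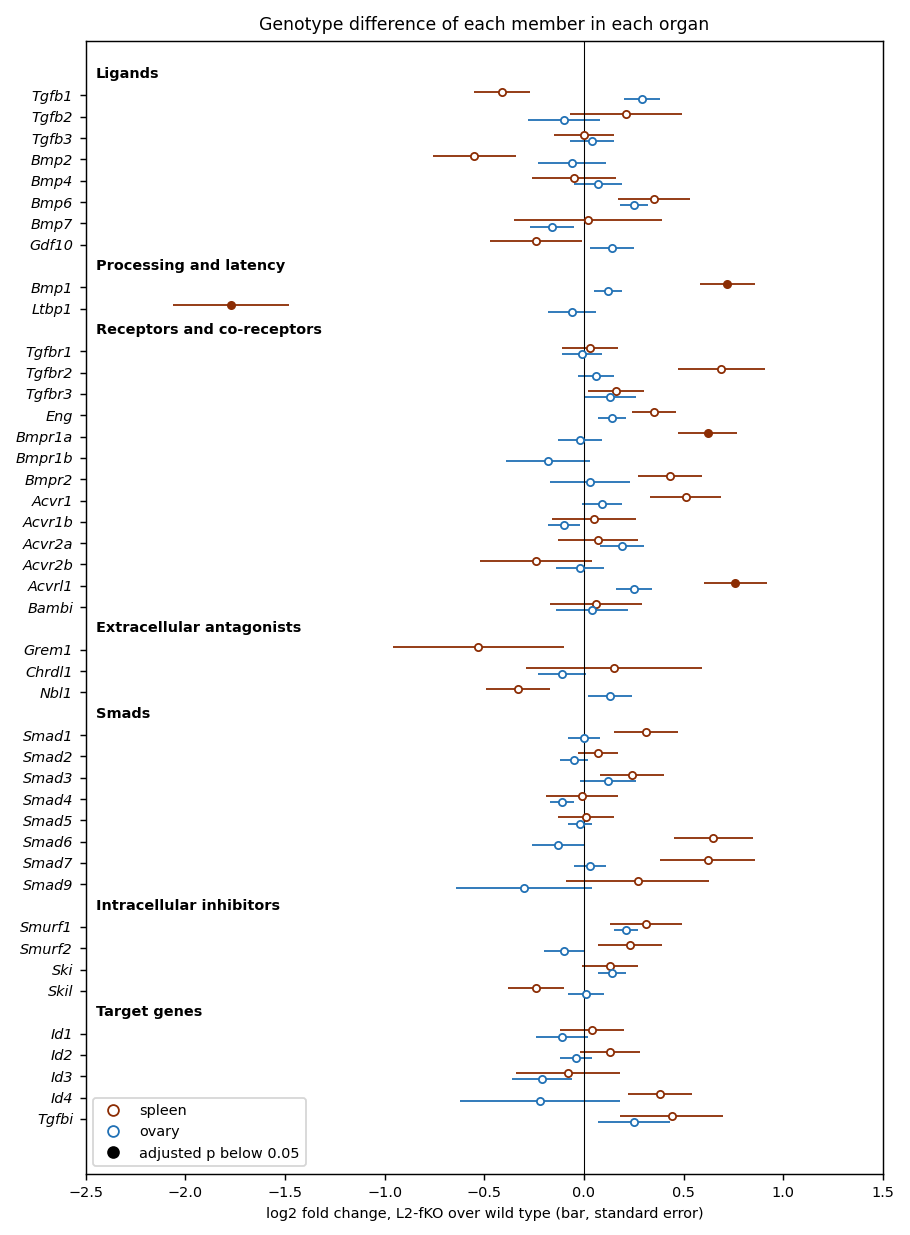
Log2 fold change of L2-fKO over wild type for each member, by role, in spleen (brown) and ovary (blue), with standard errors as bars and filled points for an adjusted p below 0.05. The 4 filled points are Ltbp1, Bmp1, Bmpr1a and Acvrl1 in the spleen, and the ovary points all lie between −0.30 and 0.29.

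In total, 6 members had all L2-fKO spleens above all wild-type spleens (Bmp1, Eng, Bmpr1a, Acvr1, Acvrl1 and Smad6, 14.3%, against 9.88% of all genes). Only Ltbp1 had all of them below (2.38%, against 10.5%).

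In the ovary, 0 of 42 members passed an adjusted p of 0.05 by limma, against 1.58% of the 18504 genes tested. edgeR and DESeq2 on the recovered reads also called 0, against 1.61% and 6.02% of all genes. At an unadjusted p under 0.05 each of the 3 tools gave 4 members (Tgfb1, Bmp6, Acvrl1 and Smurf1, 9.52%, against 16.8% of all genes by limma). The groups did not overlap for 8 members (Tgfb1, Bmp6, Bmp1, Eng, Acvrl1, Smad4, Smurf1 and Ski, 19.0%, against 25.2%). Bmp6 was at 1570, 1543 and 1489 in wild type and 1910, 1857 and 1718 in L2-fKO (0.25, SE 0.07, adjusted p = 0.149). Smurf1 was at 2872, 2734 and 2819 against 3345, 3314 and 3102 (0.21, SE 0.06, adjusted p = 0.166). The lowest ovary values were those of Smad9 (−0.30, SE 0.34) and Id4 (−0.22, SE 0.40), both with wide spread. Bmpr1b, measured only in this organ, was at 3433, 2678 and 2442 against 3157, 1846 and 2626 (−0.18, SE 0.21, adjusted p = 0.692). The median over members was 0.01, with 22 above 0 and 20 below.

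The genotype difference differed between the organs for 3 of 41 members by limma, Ltbp1, Tgfb1 and Bmp1 (7.32%, against 6.47% of 15203 genes). Without the animal that gave both L2-fKO spleen 3 and L2-fKO ovary 1, Tgfb1 (−0.63, adjusted p = 0.105) and Bmp1 (0.59, adjusted p = 0.101) lost the call and Bmpr1a gained it (0.81, adjusted p = 0.0261), while Ltbp1 kept it. Smad6 had the highest spleen minus ovary value, 0.76 (SE 0.27), which missed the threshold with an adjusted p of 0.107.

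None of the members past the test held UAUUUAU, and Tgfb1 did not either. The shorter AUUUA was found 8 times in Bmpr1a, 2 times in Acvrl1, 1 time each in Ltbp1 and Tgfb1, and 0 times in Bmp1. Among the members tested in the spleen, the 21 with the motif had a median log2 fold change of 0.15, with 18 above 0. The 21 without it had a median of 0.04, with 12 above 0. Over all genes the medians were 0.05 with the motif and −0.03 without, and 13.9% and 14.3% passed an adjusted p of 0.05. Bmp2 and Bmpr2, with 4 matches each, were at −0.55 and 0.43.

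The wider family was covered by a further list of 76 ligands, receptors, antagonists, latency proteins, regulators and targets. In the spleen 58 of them were tested and 12 passed by edgeR (20.7%, against the 13.4% given above), 9 up and 3 down. The list was chosen with earlier results of these data known, so no excess can be read from that share. Itgav, Fbn1 and Tsc22d1 passed the adjusted p alone, at log2 fold changes of 0.73, 0.69 and −0.68, and the other 9 also passed an absolute log2 fold change of 1. In the ovary 62 were tested and 0 passed by limma. Of the activin subunits, which form dimers that signal through Smad2 and Smad3, Inhba fell and Inhbb rose in the same spleens. Inhba was at 70.1, 91.8, 105 and 114 in wild type and 19.7, 41.8, 35.1 and 32.7 in L2-fKO (log2 fold change −1.56, adjusted p = 0.00556). Inhbb was at 160, 314, 223 and 296 against 798, 796, 569 and 519 (1.43, adjusted p = 0.00438). More distant ligands of the family also rose, Gdf3 (1.80, adjusted p = 0.0126) and Gdf15, a stress-induced cytokine (1.18, adjusted p = 0.0214). Chrdl2, a BMP antagonist, rose from at most 7.83 normalised counts in wild type to at least 14.3 (2.02, adjusted p = 0.00771).

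Of the 11 wider target genes tested, 3 rose and 1 fell, where 6.89% of all genes rose and 6.51% fell. The median log2 fold change of the 11 was −0.11. Those that rose were the cell cycle inhibitors Cdkn1a (p21) and Cdkn2b (p15), which TGF-beta can induce, and Fn1. Cdkn1a was at 521, 410, 323 and 365 in wild type and 1818, 1603, 2108 and 1074 in L2-fKO (log2 fold change 2.02, adjusted p = 0.000462, edgeR). Cdkn2b was at 11.7 to 18.7 and 33.5 to 47.2 (1.46, adjusted p = 0.00576). Fn1, the matrix protein fibronectin, was at 12487, 11704, 16149 and 12920 against 26768, 27725, 26840 and 30773 (1.07, adjusted p = 0.00104). The target that fell was Tsc22d1, a transcriptional regulator first found as a TGF-beta response gene. It was at 6944, 7778, 5066 and 8018 in wild type and 4641, 4352, 4058 and 4355 in L2-fKO (−0.68, SE 0.14, adjusted p = 0.0143). The groups did not overlap for any of these 4 genes, but the same libraries gave their calls, so this adds no support. Of all genes, 9.88% had every L2-fKO spleen above every wild type and 10.5% had every one below.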

How the data were processed

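Poly(A) libraries were trimmed with Trimmomatic 0.36, aligned to GRCm38 with STAR 2.5.2b and counted per gene with featureCounts (Subread 1.5.2) by the authors. Raw counts of the 8 spleens were deposited. For the 6 ovaries the authors deposited normalised counts (a signal, reads divided by a size factor), and 100.0% of these values were whole reads to within 0.001 of a read once the factor was recovered. Fold-change and p-value columns of the deposited tables were not used.

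Spleen counts were tested with edgeR 4.0.16 (quasi-likelihood, TMM, at least 10 counts in 4 libraries), ovary values with limma 3.58.1 on log2(value + 1) with an intensity trend (at least 10 in 3 libraries), and the difference between organs with limma over both tables. Ovary fold changes are thus on the log2(value + 1) scale. Adjusted p-values are Benjamini-Hochberg over all genes tested. DESeq2 1.42.0, other filters, pseudocounts, sex, a replicate block and leave-one-out fits were alternatives. The tests were first run on simulated data with log2 fold changes of 2, larger than that of any member. All 200 changed genes were recovered in the spleen and all 200 in the ovary, with 1 and 2 false calls. The interaction recovered 368 of 369, with 25 false calls. Smaller changes were not simulated, so recovery at the size of Bmp1, Bmpr1a and Acvrl1 in the spleen (0.62 to 0.76) was not measured. No false-call rate for spleen members called on the adjusted p alone is drawn from the simulation. Spleen normalised counts are the authors' values, and reads per kilobase used GENCODE M21 exon lengths. The labels number 2 wild-type spleens 3, and the male was taken as 4. Members, roles and lists were chosen with earlier results of these data known, and the motif was chosen after the files were read. Members past an adjusted p of 0.05 or an absolute log2 fold change of 1 are given with all their values. The plan was to name genes of the wider list that passed both limits. Itgav, Fbn1 and Tsc22d1, which passed the adjusted p alone, are named as well.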

Additional observations from a re-analysis of the deposited data

Results flagged for a closer look

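In 13 of 84 groups of 4 spleens the highest or lowest library stood apart from the rest of its group by Dixon's criterion. Chance alone meets it in about 1 group in 20. The 84 groups came from 42 members in the same 8 libraries, so they were not independent. The share of all genes that meet the criterion was not computed, so the 13 cannot be read as a trait of the members. L2-fKO spleen 4 was that library 8 times, with normalised counts of 700 for Bmp6, 8667 for Tgfbr2, 7863 for Eng, 461 for Acvr1, 2727 for Acvrl1, 2330 for Smad3, 1821 for Smurf2 and 10587 for Tgfbi, high each time. L2-fKO spleen 1 stood apart for Bmp7 (27, high). Wild-type spleen 1 stood apart for Tgfbr2 (5438) and Smad7 (949), both high, and wild-type spleen 3 for Bmp1 (1774, high) and Bambi (250, low). The genotype difference differed between the organs (spleen minus ovary, log2) for Ltbp1 at −1.82, Tgfb1 at −0.69 and Bmp1 at 0.61.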

How the results depend on the processing

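Ltbp1 and Bmp1 kept their spleen calls under all 15 alternatives, and Acvrl1 and Bmpr1a under 13 and 9. The shares of all genes under the alternatives below are for either direction. The count of members higher in the L2-fKO spleen was 3 as reported, where 6.89% of all genes were called higher and 13.4% in either direction. It was 7 with DESeq2 (adding Acvr1, Eng, Smad6 and Tgfbr2), which called 19.5% of all genes. With males alone it was 5 (14.9% of all genes). With no filter on low counts it was also 5, where 6.9% of 35029 genes were called, against 16911 genes tested with the filter. With the replicate number as a block it was 1 (7.37%, 1247 genes against 2267). Acvrl1 (adjusted p = 0.0514, edgeR) and Bmpr1a (0.0773) then passed the threshold no longer. Without 1 library the count higher was 1 to 4, with 6.23% to 18.1% of all genes called. The count lower, 1 as reported, was then 1 to 3. The study speaks of age-matched pairs, but no source used here ties the numbers to them. Same-numbered spleens did not deviate together (correlations −0.31 to 0.18), so the numbers were not taken as pairs, nor were those of the ovaries (0.07 to 0.38). For the difference between organs, 1 member was higher in the spleen as reported, 0 in females alone and 0 to 2 without 1 library. Of lower members, 2 as reported, 1 was left in females alone and 1 without the animal that gave both organs (where the higher member is Bmpr1a in place of Bmp1), and 1 to 2 without 1 library. The ovary count was 0 under every alternative run, the replicate block among them. Ovary values near 0 changed sign without 1 library: Bmpr1a to 0.09 or 0.03 (range −0.10 to 0.09) and Ltbp1 to 0.04 (range −0.15 to 0.04). The cause of these changes was not tested.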

Other observations

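In the ovary, the ligands of the wider list had a lower summed level in each L2-fKO library (42336 to 89314 normalised counts) than in any wild type (93615 to 107120), while 0 of the 13 tested passed by limma. The summed granulosa cell markers, which share Inha and Amh with that list, were 58007 to 72111 in wild type and 25663 to 63186 in L2-fKO. Their part in the ligand values was not tested. L2-fKO ovary 2 had the lowest granulosa sum. It was at 14856 for Inha and 3671 for Amh, where L2-fKO ovaries 1 and 3 had 35632 and 35475 for Inha and 15108 and 16799 for Amh. For both genes the values of L2-fKO ovaries 1 and 3 lay within the wild-type range (Inha 31788 to 42991, Amh 14434 to 17848). The summed oocyte markers overlapped, at 131239 to 143541 and 122840 to 164932.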
